A study of Homo sapiens with 3 samples.

Results

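The genes described here control the start of blood clotting by tissue factor and the conversion of plasminogen to plasmin. The 9 genes are TFPI, TFPI2, F3, THBD, PROCR, PLAU, PLAUR, PLAT and SERPINE2, taken by symbol from the array annotation, and all 9 were measured, among 18417 genes in all. They were chosen by their function and with their values on these arrays known, since the large difference of TFPI and that of PLAUR between resistant and parental cells prompted the choice. Their differences are therefore given as a description, with no test.

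LoVo is an established human colorectal cancer cell line. RNA was measured in 3 cultures, each on 1 Affymetrix Human Gene 1.0 ST array. These were parental LoVo cells, the irinotecan-resistant derivative LoVo-R8 grown free of the drug, and LoVo-R8 grown in 8 μM irinotecan, a topoisomerase I poison. LoVo-R8 was made from LoVo by raising the irinotecan dose stepwise from 0.1 to 8 μM, and the sources used here do not say whether it is a single clone. All 3 samples carry 1 treatment text, which places irinotecan 24 hours ahead of RNA extraction, and it remains unclear if this applied to parental cells. With 1 array per condition no value has an error, and a difference between conditions cannot be told apart from one between single cultures or arrays.

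Tissue factor, the product of F3, is the membrane receptor that starts clotting by binding factor VIIa, and TFPI is the Kunitz-type protease inhibitor that stops it. Thrombomodulin (THBD) turns thrombin from a clotting enzyme into an activator of protein C. The endothelial protein C receptor (PROCR) presents protein C to thrombin bound by thrombomodulin. Urokinase (PLAU) and tissue plasminogen activator (PLAT) cut plasminogen to plasmin, the urokinase receptor (PLAUR) holds urokinase at the cell surface, and SERPINE2 encodes protease nexin-1, a secreted inhibitor of thrombin and of both activators. In colorectal tumours tissue factor and the urokinase system are best known for their part in invasion and in tumour-associated thrombosis.

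The promoter windows of F3, PLAUR and TFPI are shown because F3 and PLAUR had the most negative differences from parental LoVo among the 9 genes on both LoVo-R8 arrays, and TFPI the most positive. Each window runs from 250 bases before to 50 bases after the RefSeq gene start (GRCh38.p14), is written 5′ to 3′ on the strand of the gene, and has the AP-1 motif TGAGTCA in capitals where it occurs. The F3 window lies at chr1:94541710-94542009, that of PLAUR at chr19:43670120-43670419 and that of TFPI at chr2:187554386-187554685, all on the minus strand.
F3: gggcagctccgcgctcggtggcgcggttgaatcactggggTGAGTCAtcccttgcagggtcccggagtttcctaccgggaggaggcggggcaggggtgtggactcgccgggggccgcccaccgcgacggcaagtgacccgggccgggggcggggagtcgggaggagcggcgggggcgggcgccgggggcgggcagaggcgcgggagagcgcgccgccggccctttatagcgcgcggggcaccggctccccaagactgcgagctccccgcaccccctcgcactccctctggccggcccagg
PLAUR: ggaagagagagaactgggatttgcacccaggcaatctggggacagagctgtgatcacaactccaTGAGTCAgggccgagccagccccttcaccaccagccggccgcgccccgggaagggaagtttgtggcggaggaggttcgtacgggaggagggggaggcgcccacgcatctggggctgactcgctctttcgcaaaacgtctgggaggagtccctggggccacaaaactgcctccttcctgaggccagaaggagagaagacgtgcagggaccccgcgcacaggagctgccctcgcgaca
TFPI: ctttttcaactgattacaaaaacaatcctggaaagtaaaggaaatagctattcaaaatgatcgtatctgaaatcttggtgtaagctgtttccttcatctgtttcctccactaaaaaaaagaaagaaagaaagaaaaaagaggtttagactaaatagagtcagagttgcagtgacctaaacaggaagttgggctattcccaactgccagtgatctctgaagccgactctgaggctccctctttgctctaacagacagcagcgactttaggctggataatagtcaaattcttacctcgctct

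Of the 9 genes, 7 have at least 1 such window and 2, THBD and PLAT, were not matched. The motif TGAGTCA, read on both strands, was found in the windows of F3 and PLAUR and of no other matched gene among the 9, and in 4.95% of all 35116 windows. It begins 210 bases before the gene start in F3 and 186 bases before it in PLAUR. The looser form TGANTCA, which includes every TGAGTCA, was found in F3, PLAUR and TFPI2, and in 7.71% of all windows. Of the other motifs searched, TATAAA was found in F3 and PROCR and in 11.5% of all windows. GGGCGG was found in 5 of the 7 genes with a window and in 45.0% of all windows. AGGAAG was found in 4 of the 7, TFPI and PLAUR among them, and in 33.6% of all windows. These shares count windows, not genes, and PLAU and SERPINE2 have 2 windows each. TGACGTCA and GGAATG, found in 1.85% and 14.03% of all windows, were in no window of the 9 genes. The motifs were chosen after the windows had been read, and a match is a run of letters, not a site shown to be bound.

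Relative to parental LoVo, the differences past 2-fold on at least 1 LoVo-R8 array were higher TFPI RNA and lower PLAUR RNA. TFPI was 11.7-fold higher in LoVo-R8 without irinotecan and 10.5-fold higher with it, or 7.48-fold and 6.69-fold when its low parental level was raised to the first quartile of the array. PLAUR was at 28.4% of its parental level without irinotecan and at 50.6% with it. F3 was lower by a smaller amount, SERPINE2 and PROCR were higher by a smaller amount, and PLAU, PLAT, THBD and TFPI2 lay within 1.5-fold of parental LoVo on both LoVo-R8 arrays.

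With 2-fold as the threshold, 1 of the 9 genes, TFPI, was higher and 1, PLAUR, was lower in LoVo-R8 without irinotecan than in parental LoVo. Over all genes in this comparison, 1.64% were higher and 2.78% lower by that measure. In LoVo-R8 with irinotecan, 1 of the 9, TFPI, was higher and 0 were lower, against 2.25% higher and 2.3% lower over all genes. These shares are given as a background only, because the genes were chosen with the same differences known. The median log2 difference of the 9 genes was 0.19 without and 0.09 with irinotecan, and that of all genes was 0 in both comparisons. Each of the 8 genes whose level was not identical on the arrays had the same sign in both comparisons, which share the parental array.

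**Figure D1:**
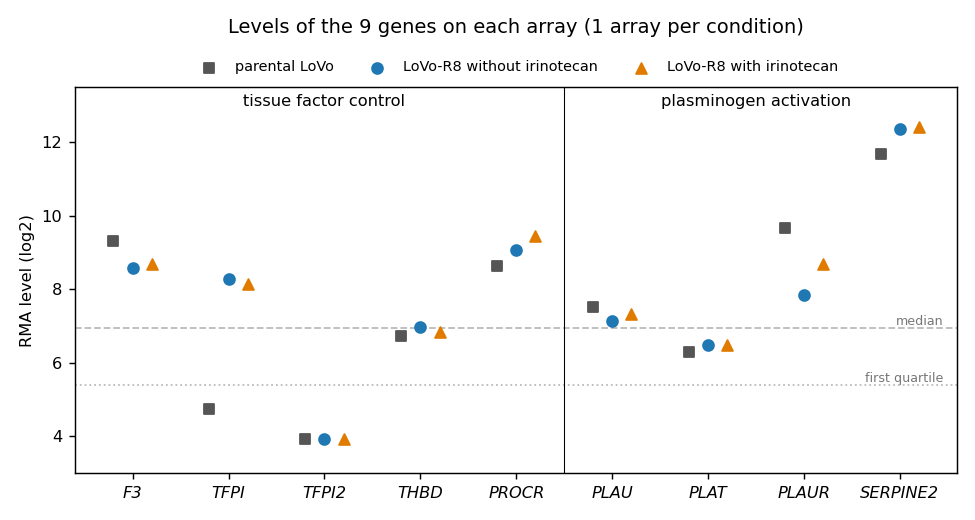
RMA log2 level (vertical axis) of each of the 9 genes in parental LoVo (squares), LoVo-R8 without irinotecan (circles) and LoVo-R8 with irinotecan (triangles), 1 array each, with grey lines at the mean first quartile and mean median of the arrays. TFPI lies at 4.74 in parental LoVo and at 8.29 and 8.13 in LoVo-R8, and PLAUR at 9.66, 7.84 and 8.68. Heights of different genes come from different probes and are not comparable.

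RNA of F3, the tissue factor gene, was lower on both LoVo-R8 arrays, inside 2-fold. For F3 the parental log2 level was 9.33, against 8.57 in LoVo-R8 without irinotecan and 8.70 in LoVo-R8 with irinotecan. Both resistant cultures were below the parental one, by 40.7% and 35.5%, and lay close to each other. The log2 differences, -0.75 and -0.63, did not reach 2-fold. Of all genes, 91.7% had a smaller absolute difference in the first comparison and 88.5% in the second.

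TFPI encodes the main inhibitor of the complex of tissue factor and factor VIIa. In parental LoVo its log2 level was 4.74, against 8.29 in LoVo-R8 without irinotecan and 8.13 in LoVo-R8 with irinotecan. The parental level was below the first quartile of its array (5.39), and both LoVo-R8 levels were above the array medians (6.95 and 6.94). The log2 differences were 3.55 and 3.39, which ranked 3 and 7 from the highest among all genes. Because a parental value this low may be background, its size is uncertain, and with levels below the first quartile raised to it the log2 differences were 2.90 and 2.74, which ranked 9 and 21. Between the LoVo-R8 arrays the log2 difference of TFPI was -0.16 with against without irinotecan.

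TFPI2 encodes a related Kunitz-type inhibitor of the extracellular matrix that acts on plasmin. Its log2 level was 3.93 on each of the 3 arrays. This identity does not show that the gene has the same expression in the cultures, since the level was below the first quartile on every array and 7.13% of all probe sets had 1 identical value on all 3 arrays.

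The genes of protein C activation had positive differences. For PROCR, which presents protein C to its activating complex, the parental log2 level was 8.65, against 9.08 in LoVo-R8 without irinotecan and 9.44 in LoVo-R8 with irinotecan. The resistant cultures were 1.35-fold and 1.74-fold of parental LoVo, with the culture in irinotecan the higher one. For THBD, which binds thrombin, the levels were 6.74, 6.96 and 6.83. Its log2 differences of 0.22 and 0.09 were larger in size than those of 58.8% and 38.6% of genes and the 3 arrays lay close together.

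**Figure D2:**
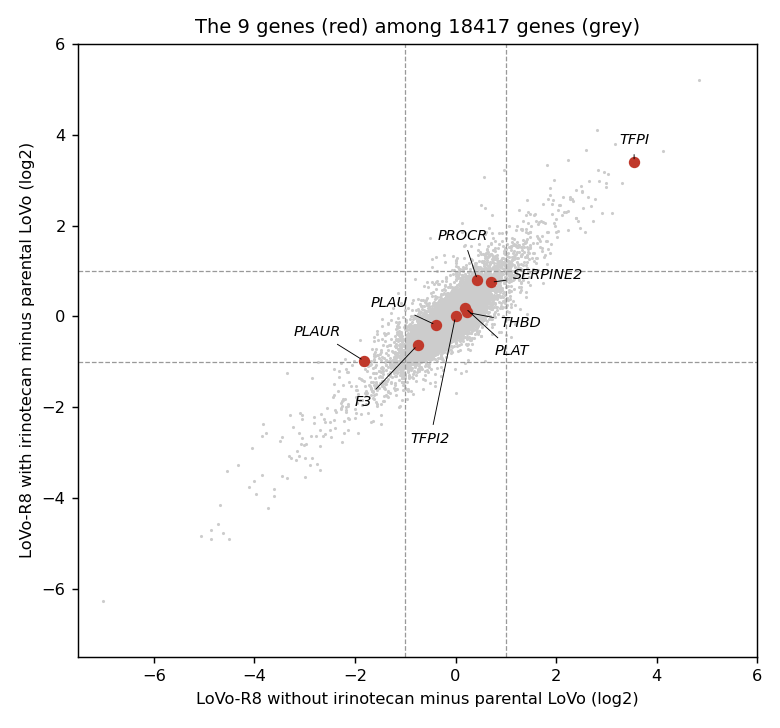
Log2 difference from parental LoVo in LoVo-R8 without irinotecan (horizontal axis) and with irinotecan (vertical axis), with 1 grey point for each of 18417 genes, the 9 genes in red, and dashed lines at 2-fold. TFPI lies at 3.55 and 3.39, PLAUR at -1.82 and -0.98, and the other 7 genes lie inside the 2-fold lines. Both axes share the parental array.

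RNA of the urokinase receptor had the largest negative difference of the 9 genes on both LoVo-R8 arrays. For PLAUR the parental log2 level was 9.66, against 7.84 in LoVo-R8 without irinotecan and 8.68 in LoVo-R8 with irinotecan. The parental culture was the highest, the drug-free resistant culture the lowest, and the culture in irinotecan lay between them. The log2 difference from parental LoVo was -1.82 without irinotecan, which ranked 128 from the lowest among all genes, and -0.98 with it, which ranked 442 and just missed 2-fold.

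RNA of the activators differed less. Urokinase RNA, from PLAU, had log2 levels of 7.52 in parental LoVo, 7.14 in LoVo-R8 without irinotecan and 7.33 in LoVo-R8 with irinotecan. The order of the cultures was the same as for PLAUR, with log2 differences of -0.38 and -0.19. PLAT, the tissue-type activator of fibrinolysis, had levels of 6.30, 6.49 and 6.49, all below the array medians. Its log2 differences were 0.19 and 0.18.

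SERPINE2 was the inhibitor of the activators among the 9 genes. Parental LoVo had a log2 level of 11.68, against 12.38 in LoVo-R8 without irinotecan and 12.43 in LoVo-R8 with irinotecan. Both resistant cultures were above the parental one, 1.62-fold and 1.68-fold, and differed from each other by 0.05. Of all genes, 90.4% and 91.6% had smaller absolute differences from parental LoVo.

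Within the resistant line, PLAUR had the largest difference of the 9 genes between the cultures with and without irinotecan. None of the 9 genes reached 2-fold between LoVo-R8 with and without irinotecan, where 0.527% of all genes were higher and 0.114% lower. PLAUR was 1.78-fold higher with the drug, a log2 difference of 0.83 that ranked 183 from the highest. It was the only one of the 9 whose absolute difference exceeded 0.53, the value below which 95% of all genes lay in this comparison, and it was under 0.90, below which 99% lay. PROCR followed at 0.36, PLAU at 0.19, TFPI at -0.16, THBD at -0.14 and F3 at 0.12, and the other genes lay between -0.01 and 0.05.

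The genes with the pattern nearest to TFPI and PLAUR were found by the distance between pairs of log2 differences from parental LoVo, over 3 arrays and among genes at or above the array median on at least 1 of them. The nearest to TFPI were LINC01152, a long noncoding RNA (3.32 without and 2.94 with irinotecan, distance 0.51), AGMO, an enzyme that cleaves ether lipids (3.17 and 3.80, distance 0.56), and APOBEC3G, a cytidine deaminase (3.03 and 3.13, distance 0.58), whose paralogs may share its probes. The nearest to PLAUR were DNAJA1, an HSP40 cochaperone (-1.80 and -1.003, distance 0.026), BACE2, an aspartic protease (-1.79 and -1.05, distance 0.069), and HSPH1, an HSP110 chaperone (-1.84 and -0.91, distance 0.074). With 3 arrays such likeness is a description of position in the scatter plot.

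Lists of related genes were set beside the 9. Of 72 other genes in 8 lists, 68 were measured here. In LoVo-R8 without irinotecan 1 of them was at least 2-fold higher and 1 lower than in parental LoVo, and with irinotecan 1 was higher and 2 were lower. Over all genes the shares were 1.64% higher and 2.78% lower without irinotecan, and 2.25% and 2.3% with it, so that these counts lay near or below the background. Their median log2 difference was 0.06 without and 0.04 with irinotecan. The counts name 4 genes, which are FOSL1, ETV4, ST14 and SERPINB8.

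**Figure D3:**
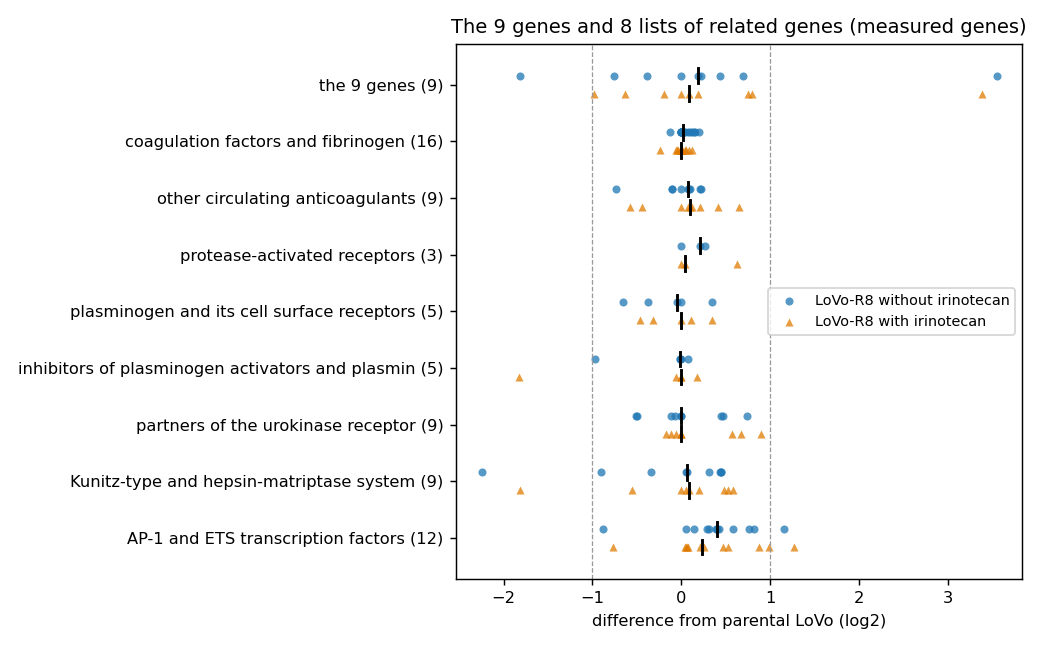
Log2 difference from parental LoVo (horizontal axis) of the measured members of 9 groups, with their number in brackets, in LoVo-R8 without irinotecan (circles) and with irinotecan (triangles). Black bars mark group medians and the dashed lines 2-fold. The coagulation factors lie between -0.24 and 0.20, while TFPI lies at 3.55 and 3.39.

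Clotting factors and fibrinogen, made mainly by the liver, gave no member past 2-fold. All 16 were measured, and their log2 differences lay between -0.13 and 0.20 without irinotecan and between -0.24 and 0.12 with it. Factor VII (F7), the partner of tissue factor, had log2 levels of 6.59 in parental LoVo, 6.68 without and 6.63 with irinotecan, all below the array medians. Factor X (F10), its substrate, had levels of 6.63, 6.83 and 6.64. On the 3 arrays 8, 8 and 9 of the 16 were below the first quartile and 1 was at or above the median, and 4 had identical values on all 3, so a difference of most of these genes may not have been detectable.

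Of 9 other anticoagulants, none passed 2-fold on either LoVo-R8 array. PROS1, the protein S cofactor of protein C, had log2 levels of 6.95 in parental LoVo, 6.84 without and 7.60 with irinotecan. These PROS1 levels are from the brighter of its 2 probe sets, and the other is not shown. PROC itself had a log2 difference of 0.22 on both LoVo-R8 arrays. ANXA5, which binds phosphatidylserine, had 11.40, 10.67 and 10.82. Of the 3 protease-activated receptors measured, the thrombin receptor F2R had levels of 8.47, 8.74 and 9.10, and none passed 2-fold. Every gene named from the lists with values inside 2-fold was picked after its values had been seen.

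Among plasminogen and its cell surface receptors, 0 of 5 passed 2-fold. Plasminogen (PLG) had the same log2 level, 5.86, on all 3 arrays, below the array medians. As with TFPI2, this identity does not show equal expression, since 7.13% of all probe sets had 1 identical value on all 3 arrays. Its receptor subunits ANXA2 and S100A10 had log2 differences of -0.37 and 0.35 without irinotecan and -0.32 and 0.34 with it, so the signs of the pair were opposite. ENO1 had the largest difference of the 5, -0.66 without and -0.46 with irinotecan. Without irinotecan 1 of the 5 was above parental LoVo, 3 were below and 1 was equal, and with it 2, 2 and 1. Of 9 partners of the urokinase receptor, 0 passed 2-fold. LRP1, the endocytic receptor that clears urokinase bound to its inhibitors, had levels of 7.65 in parental LoVo, 8.39 without and 8.55 with irinotecan. The integrin genes ITGAV and ITGB1 had log2 differences of 0.45 and 0.47 without irinotecan and 0.57 and 0.67 with it. LRP1, ITGAV and ITGB1 were the 3 partners above parental LoVo in each comparison. Of the other partners, 4 were below it and 2 equal without irinotecan, and 3 were below and 3 equal with it. ITGB5 had -0.51 without and -0.12 with irinotecan, and LRPAP1 -0.50 and -0.06. The median of these partners was 0 in both comparisons.

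Of 5 measured inhibitors of plasminogen activators and plasmin, SERPINB8 was lower. Parental LoVo had a log2 level of 9.67, against 8.69 in LoVo-R8 without irinotecan and 7.83 in LoVo-R8 with irinotecan. It reached 2-fold with the drug (-1.83) and not without it (-0.97), and between the LoVo-R8 arrays it was lower with the drug by 0.86. SERPINB8 is an intracellular serpin best known as an inhibitor of furin, so it is not a typical member of this list. The median of the list was -0.01 without and 0.00 with irinotecan.

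In the system of hepsin, matriptase and Kunitz-type inhibitors, which activates hepatocyte growth factor at epithelial surfaces, 1 of 9 genes was lower on both LoVo-R8 arrays. This was ST14, the gene of the membrane protease matriptase, which can activate urokinase. Parental LoVo had a log2 level of 10.38, against 8.13 without and 8.56 with irinotecan, and the log2 differences were -2.25 and -1.82. As with PLAUR, the drug-free resistant culture was the lowest. SPINT1, its Kunitz-type inhibitor, had levels of 9.81, 8.91 and 9.26 and did not reach 2-fold. Over the whole list 6 of the 9 were above parental LoVo and 3 below without irinotecan. With it 6 were above, 2 below and 1 equal. The median of the list was 0.07 without and 0.08 with irinotecan.

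Of 12 transcription factors of the AP-1 and ETS families, which are known regulators of PLAU and PLAUR, 1 was at least 2-fold higher on each LoVo-R8 array, FOSL1 without and ETV4 with irinotecan. The AP-1 subunit gene FOSL1 had log2 levels of 9.75 in parental LoVo, 10.91 without and 10.74 with irinotecan. Its log2 differences were 1.16 and 0.99, and the second one passed 2-fold with loess correction (1.01) or repeated quantile normalization (1.03). ETV4 had levels of 8.82, 9.58 and 10.10, with log2 differences of 0.76 and 1.27. The median of the list was 0.40 without and 0.24 with irinotecan. In each comparison 11 of the 12 were above parental LoVo and 1, ETS1, was below it (-0.88 without and -0.77 with irinotecan). The levels of ETS1 were 6.81 in parental LoVo, 5.93 without and 6.04 with irinotecan, all below the array medians. PLAUR and F3, whose windows hold the AP-1 motif TGAGTCA, had differences of the opposite sign to those 11, FOSL1 among them. A relation between these genes was not tested.

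Each of the 9 genes was compared with the 3 nearest measured genes on either side in the RefSeq order. Of 54 such neighbours, 2 passed 2-fold on a LoVo-R8 array. Both were lower in LoVo-R8 without irinotecan, where 2.78% of all genes were at least 2-fold lower and 1.64% higher. With irinotecan, where neither reached 2-fold, the shares over all genes were 2.3% lower and 2.25% higher. The 6 neighbours of TFPI on chromosome 2, CALCRL and GULP1 being the nearest, had log2 differences between 0 and 0.31 without irinotecan and between -0.07 and 0.58 with it. The 6 neighbours of PLAUR on chromosome 19 lay between -0.01 and 0.33 and between -0.13 and 0.19. Of the neighbours of TFPI, 3 were below the first quartile on every array, CALCRL among them, where a difference may not have been detectable, and of those of PLAUR 0 were.

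The neighbours past 2-fold were CNN3, near F3 on chromosome 1, and MT1P3, next to PROCR on chromosome 20. CNN3, which encodes an actin-binding calponin, had a log2 difference of -1.16 without irinotecan and -0.25 with it. MT1P3, a metallothionein pseudogene that may share probes with its paralogs, had -1.11 and -0.51, opposite in sign to PROCR. TFPI2 on chromosome 7 had neighbours between -0.65 and 0.15 without irinotecan.

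**Figure D4:**
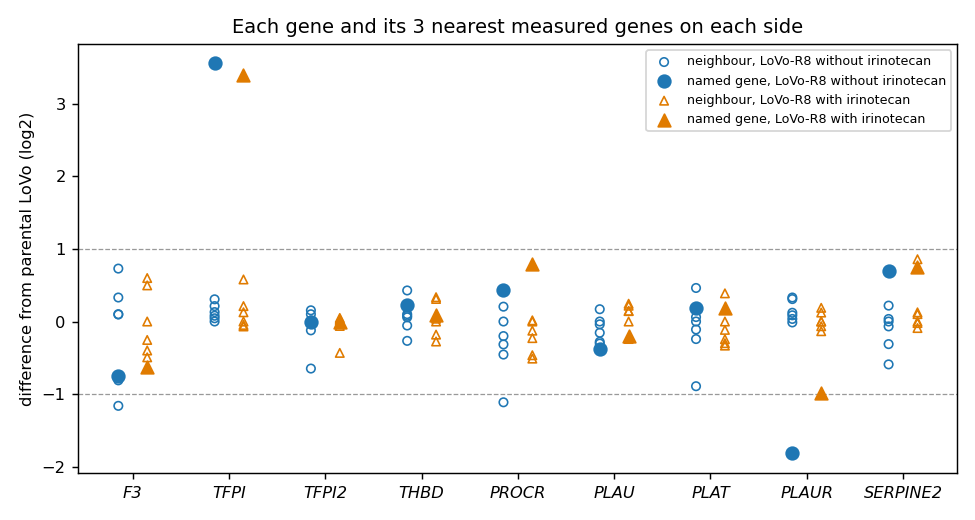
Log2 difference from parental LoVo (vertical axis) of each of the 9 genes (filled) and of its 3 nearest measured genes on each side (open), in LoVo-R8 without irinotecan (circles) and with irinotecan (triangles), with dashed lines at 2-fold. The neighbours of TFPI lie between -0.07 and 0.58, far from TFPI at 3.55 and 3.39.

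The labelled cell type was checked against markers. All 10 colon epithelial markers were above the first quartile on every array, and 9, 8 and 9 of them were at or above the array median in parental LoVo, LoVo-R8 without and LoVo-R8 with irinotecan. The surface antigen gene CEACAM5 (-2.37 and -2.11) and the lectin gene LGALS4 (-2.27 and -2.01) were at least 2-fold lower on both LoVo-R8 arrays, and the summed linear level of the list was 35488, 22572 and 23423. The other 8 markers stayed inside 2-fold. The sum, like those of the other marker lists, is weighted to the brightest probe sets. Here these were KRT8 and KRT18, which are among the 8. Over the whole list 8 were below and 2 above parental LoVo without irinotecan, and 7 were below, 2 above and 1 equal with it, with CDX2, a transcription factor of intestinal identity, the highest at 0.35 and 0.91. The median was -0.42 without and -0.28 with irinotecan, and the part of these differences in those of TFPI and PLAUR was not tested.

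TFPI, THBD, PROCR and PLAT are typical of endothelial cells. None of 6 endothelial markers was at or above the array median on any array, and 4, 3 and 4 of them were below the first quartile in parental LoVo, LoVo-R8 without and LoVo-R8 with irinotecan. All 6 were above parental LoVo without irinotecan, by 0.08 to 0.29 on the log2 scale with a median of 0.20, and with irinotecan 4 were above and 2 equal, by up to 0.40, the value of ERG. The part of these differences in those of the 9 genes was not tested. The summed linear level of these markers was 248 in parental LoVo, 287 without and 269 with irinotecan. The 6 fibroblast markers had log2 differences between -0.05 and 0.17 over both comparisons, with summed linear levels of 512, 547 and 518, and the 6 leukocyte markers between -0.07 and 0.40, with 456, 482 and 528.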

How the data were processed

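Total RNA (300 ng) from 3 cultures was hybridised by the authors to Affymetrix Human Gene 1.0 ST arrays, 1 per culture. Per probe set the authors deposited a log2 level, computed by robust multichip averaging (RMA) with quantile normalization. The paper names R and Bioconductor for it and the submitters' processing notes Affymetrix Expression Console 1.1. Levels of different genes come from different probes and are not comparable, and RMA on few arrays yields identical values. A detection filter described in the paper was not repeated.

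Samples were grouped by their labels. Of 33297 probe sets, 19460 name 1 gene. Each gene was represented by its brightest single-gene probe set. All 9 genes have 1 probe set. Differences are subtractions of log2 levels, counted at 2-fold, with no test, since no condition has a replicate. The counting code was tested on simulated data, with added shifts past 2-fold and less noise than between the LoVo-R8 arrays. That check does not measure the error of dim levels or of a single array. Precision is limited by there being 1 array per condition.

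The members and lists were chosen with earlier results of these data known. Named genes were the 9 members, other list genes and chromosomal neighbours past 2-fold on a LoVo-R8 array, and the 3 genes nearest in pattern to each member past 2-fold. Genes named beyond this rule were picked after their values had been seen. Neighbours, chromosomes and promoter windows are from RefSeq (GRCh38.p14), matched by Entrez identifier for neighbours and by symbol for windows. Of 72 listed related genes, 4 were not analysed here.

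Results were recomputed with 1.5-fold and 3-fold in place of 2-fold, and with median centring, loess correction (span 0.3, 3 iterations), repeated quantile normalization, the mean over probe sets, inclusion of probe sets that name several genes, a filter on genes below the array median, and levels raised to the first quartile. Python 3.11.15, numpy 2.4.6, pandas 2.3.3, statsmodels 0.14.6 and matplotlib 3.10.9 were used.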

Additional observations from a re-analysis of the deposited data

How the results depend on the processing

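At a threshold of 1.5-fold, 2 of the 9 genes were higher and 2 lower than in parental LoVo without irinotecan, 3 were higher and 2 lower with irinotecan, and 1 was higher with than without it. The other 49 of 54 recomputed counts of the 9 genes were within 1.5 times of those reported. Of 182 recomputed differences, 180 stayed within 0.25 and on their side of 2-fold, and the 2 that moved were those of TFPI, 2.90 and 2.74 with dim levels raised to the first quartile. Among the scalings, the sign changed for TFPI2 and, between the LoVo-R8 arrays, for PLAT (-0.01 to 0.06), all near 0. Genes below the median on both arrays compared have no value under that filter. No paired analysis was possible because each condition has 1 array. The single array per condition and background at low levels limit every value.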
